A study of Mus musculus with 6 samples.

Results

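PB3 mouse mammary tumour cells that had come through 2 rounds of eribulin (ERI2) were compared with PB3 cells that had come through 1 round (ERI1). The members were the cells that the deposited cell table names ERI1 or ERI2: 1865 and 1257 cells, together 3122 of the 51785 cells and nuclei of the series. All of them came from 1 library of run 2, in which cells of 1, 2 and 3 rounds had been tagged with hashtag oligos and captured together. A round was 500 nM eribulin for 72 h followed by 48 h of recovery, so ERI1 and ERI2 share the drug, the dose, the recovery and the library and differ in the number of rounds. The labels do not say whether ERI1 and ERI2 are successive samples of 1 culture or separate cultures, and the library holds no untreated cells. With 1 library per condition there is no spread between cultures and no test; the values are set side by side, and the exact 95% binomial intervals in parentheses cover counting error only. PB3 is labelled as a mammary tumour line; gene expression per cell was not analysed here, so no cell type marker was checked.

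Eribulin binds the ends of microtubules and blocks their growth, which holds dividing cells in mitosis, and a part of a tumour cell population survives such a block and grows again. Lineage barcodes tell apart 2 ways in which a treated population can come to differ. Some lineages can contribute more of the surviving cells, which changes the barcode shares, or the cells of each lineage can take on another state, which changes their cluster, their pseudotime (a position along a path of gene expression computed from untreated cells as the start), their cell cycle scores or the share of RNA from mitochondrial genes.

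Each lineage barcode is a synthetic stretch of 48 bases carried by a lentivirus: a part of 14 bases, a linker of 4 bases and a part of 30 bases. The barcodes shown are those on which the comparison turns, with the 30-base part in capitals because several lineages share the same 14-base part. The first 3 had higher shares in ERI2, the next 3 had lower shares, and the last had nearly the same share in both.
bc14-76-bc30-49517: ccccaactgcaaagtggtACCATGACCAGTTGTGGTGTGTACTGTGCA
bc14-22-bc30-18173: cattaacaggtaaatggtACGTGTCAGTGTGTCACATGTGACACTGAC
bc14-55-bc30-37135: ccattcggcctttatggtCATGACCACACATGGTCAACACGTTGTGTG
bc14-6-bc30-93034: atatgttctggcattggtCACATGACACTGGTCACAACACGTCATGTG
bc14-21-bc30-28628: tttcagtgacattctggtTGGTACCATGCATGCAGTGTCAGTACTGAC
bc14-40-bc30-97696: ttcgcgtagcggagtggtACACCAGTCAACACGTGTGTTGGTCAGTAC
bc14-39-bc30-41529: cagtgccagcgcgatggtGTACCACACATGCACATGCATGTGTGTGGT
The 143 barcodes called in ERI1 or ERI2 differed from each other at 10 or more of the 48 positions in each of the 10153 pairs. All 143 belong to the 185 lineage barcodes listed in the run 2 feature reference, so a lineage outside that list could not be seen here. The hashtag oligos that separated the conditions were GGAGAAGA for ERI1 and CCACAATG for ERI2.

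A single barcode was called in 1356 ERI1 cells, 72.7% (70.6 to 74.7), and in 882 ERI2 cells, 70.2% (67.6 to 72.7). Depth per cell was close, with medians of 17297 UMIs (counted RNA molecules) in ERI1 and 17285 in ERI2, while the median hashtag count was 723 in ERI1 and 575 in ERI2. No cell barcode of the droplet assay was shared between ERI1 and ERI2, as each cell barcode of 1 library is given 1 condition. Of their cell barcodes, 5 were also in the paclitaxel library of the same run and 9 in the untreated cells. The cells of 4 eribulin rounds shared 8, and each nuclei library 0.

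Most lineages with 10 or more cells over both conditions had different shares in ERI1 and ERI2. The summed overlap of the barcode shares was 34.4%. That of the cluster shares was 94.0% and that of the G1, S and G2M shares 99.0%; with 143 barcodes, 13 clusters of which 1 holds most cells, and 3 phases, these overlaps are not on a common scale and do not rank lineages against states. Among 39 barcodes that had 10 or more cells in ERI1 and ERI2 together, 13 (33.3%) had a share at least 2-fold higher in ERI2 and 23 (59.0%) a share at least 2-fold lower, leaving 3 within 2-fold. The 13 higher barcodes together held 14.5% (12.6 to 16.4) of the barcoded ERI1 cells and 76.8% (73.8 to 79.5) of the barcoded ERI2 cells. The 23 lower ones held 48.8% (46.1 to 51.5) and 4.65% (3.36 to 6.25). These sums describe barcodes grouped by the same shares and are not separate evidence of a difference.

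Diversity was lower after the second round. ERI1 held 132 different barcodes and ERI2 held 65; at an equal number of 882 cells the expected number in ERI1 was 120. A randomly drawn pair of cells carried the same barcode in 2.90% of pairs in ERI1 and in 11.9% in ERI2, which equals the evenness of 34.4 and 8.44 equally frequent barcodes. The 10 most frequent barcodes took up 46.7% of ERI1 and 80.3% of ERI2, and only 4 barcodes were among the 10 in both conditions. The 54 barcodes seen in both conditions held 66.1% of the barcoded ERI1 cells and 96.9% of the barcoded ERI2 cells, so most of ERI2 belonged to lineages already counted in ERI1, at other shares.

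**Figure D1:**
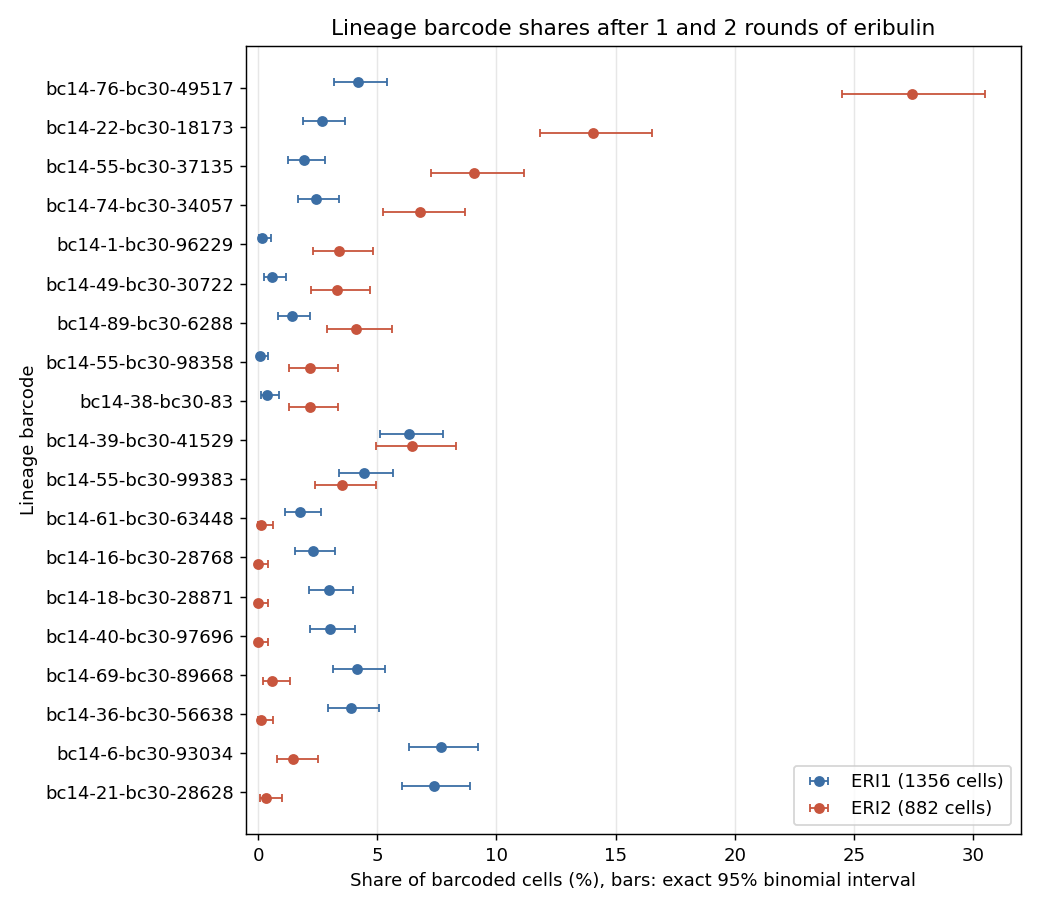
Share of barcoded cells (horizontal axis, %) of the 19 barcodes with at least 2% of either condition or the largest fold difference, in ERI1 (blue, 1356 cells) and ERI2 (red, 882 cells), with exact 95% binomial intervals. The intervals of both conditions overlap for bc14-39-bc30-41529 and bc14-55-bc30-99383, and are apart for the other 17 barcodes.

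Among the lineages with higher shares in ERI2, bc14-76-bc30-49517 had the largest difference. It was called in 57 ERI1 cells, 4.20% (3.20 to 5.41), and in 242 ERI2 cells, 27.4% (24.5 to 30.5), a 6.53-fold higher share. Its cells had median lineage barcode counts of 4 in ERI1 and 5 in ERI2, against 13 and 10 over all barcoded cells. Whether such low counts left cells of this lineage without a call was not tested. Barcode bc14-22-bc30-18173 was called in 36 ERI1 cells, 2.65% (1.87 to 3.66), and in 124 ERI2 cells, 14.1% (11.8 to 16.5). For bc14-55-bc30-37135 the share was 1.92% (1.26 to 2.80) in ERI1 and 9.07% (7.26 to 11.2) in ERI2. These 3 lineages together held 50.6% of the barcoded ERI2 cells. The bc14-55-bc30-37135 cells stood out in another respect: 76.9% of them in ERI1 and 90% in ERI2 had 2 or more detected barcodes, against 14.04% and 7.44% of the bc14-76-bc30-49517 cells. Over cells with exactly 1 detected barcode its share was higher in ERI2 by 0.591 percentage points, and under the first revision of the barcode call by 1.23, against 7.15 over all barcoded cells of the latest call. Its value thus rests on cells in which more than 1 barcode was detected.

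Smaller lineages were also more frequent in ERI2. For bc14-74-bc30-34057 the share was 2.43% (1.68 to 3.40) in ERI1 and 6.80% (5.23 to 8.67) in ERI2, and bc14-89-bc30-6288 1.40% (0.846 to 2.18) and 4.08% (2.87 to 5.61). Both were called in 0 of 5087 barcoded untreated cells of run 1, a count compatible with shares up to 0.0590%. Barcode bc14-49-bc30-30722 had 8 cells in ERI1 and 29 in ERI2, and bc14-38-bc30-83 had 5 and 19. Barcodes bc14-1-bc30-96229 and bc14-55-bc30-98358 were close to unseen in ERI1, with 2 cells and 1 cell, 0.147% (0.0179 to 0.532) and 0.0737% (0.00187 to 0.410). In ERI2 they had 30 and 19 cells, 3.40% (2.31 to 4.82) and 2.15% (1.30 to 3.34).

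The lineages that had led ERI1 were mostly not those that led ERI2. The most frequent barcode of ERI1, bc14-6-bc30-93034, was called in 104 ERI1 cells, 7.67% (6.31 to 9.22), and in 13 ERI2 cells, 1.47% (0.787 to 2.51), a 5.20-fold lower share. In ERI3, the third condition of the library, it made up 25.01% (23.2 to 26.9), so of these 3 conditions ERI2 had its lowest share. The next most frequent, bc14-21-bc30-28628, had 100 ERI1 cells, 7.37% (6.04 to 8.90), and 3 ERI2 cells, 0.340% (0.0702 to 0.991). Barcode bc14-69-bc30-89668 had 56 and 5 cells, bc14-36-bc30-56638 had 53 and 1, and bc14-61-bc30-63448 had 24 and 1.

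Several lineages of ERI1 were not found in ERI2. Barcode bc14-40-bc30-97696 was called in 41 ERI1 cells, 3.02% (2.18 to 4.08), and in 0 of 882 barcoded ERI2 cells. A count of 0 allows shares up to 0.340%, the limit of 3 cells. At that limit the ERI2 share was 8.89-fold lower than the ERI1 share of 3.02%. This fold leaves out the counting error of the ERI1 share. Barcode bc14-18-bc30-28871 had 40 cells in ERI1 and bc14-16-bc30-28768 had 31, and both had 0 in ERI2. In all, 12 of the 30 barcodes with at least 10 ERI1 cells had no ERI2 cell. Of these 12, 9 were called in ERI3, each in no more than 0.135% of its barcoded cells, which is the limit of 3 cells there. Whether these few ERI3 cells carried the wrong hashtag was not tested. A count of 0 in ERI2 does not show that a lineage was lost.

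Only 3 of the 39 barcodes kept a share within 2-fold. Barcode bc14-39-bc30-41529 had 86 ERI1 cells, 6.34% (5.10 to 7.77), and 57 ERI2 cells, 6.46% (4.93 to 8.29). The shares of bc14-55-bc30-99383 were 4.42% (3.39 to 5.66) and 3.51% (2.40 to 4.95). The other was bc14-95-bc30-33662, with 19 and 17 cells.

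The differences in barcode shares were compared within states. Cluster 7 held most cells of both conditions. Within it, bc14-76-bc30-49517 made up 4.09% (3.06 to 5.34) of the barcoded ERI1 cells and 27.0% (24.0 to 30.3) of the barcoded ERI2 cells. Its shares were 3.98% and 27.4% among G1 cells, 4.37% and 24.5% among S cells, and 4.27% and 29.0% among G2M cells. For bc14-21-bc30-28628 the shares were 3.98% and 0% in G1, where 0 of 274 cells allows up to 1.09%, 8.75% and 0.472% in S, and 9.04% and 0.505% in G2M. Of the 19 named barcodes, 17 differed in the same direction in cluster 7 and in all 3 phases. The other 2 were bc14-39-bc30-41529 and bc14-55-bc30-99383, the barcodes whose intervals overlapped. The 19 were named by shares or folds in these same cells, of which each phase is a part. Cluster 7 held 1247 of the 1356 barcoded ERI1 cells and 799 of the 882 barcoded ERI2 cells. The same direction there was thus largely fixed in advance. Outside cluster 7, with 109 and 83 barcoded cells, 11 of the 19 differed in the same direction as over all cells, 5 in the opposite direction and 3 had no cell in either condition. Those in the opposite direction, each with 5 or fewer cells per condition there, included bc14-74-bc30-34057, with 3.67% in ERI1 and 2.41% in ERI2, and bc14-49-bc30-30722, with 2.75% and 1.20%. The overlap of the barcode shares was 33.6% within cluster 7, 26.7% outside it, and between 30.3% and 34.9% within the phases. Cells on either side of the pooled median of the mitochondrial share had overlaps of 33.8% and 33.8%, and cells at or below and above the pooled median pseudotime 34.4% and 31.7%. Barcode bc14-76-bc30-49517 had a higher share in ERI2 on each side of both medians, at different levels. This did not hold for every lineage: bc14-49-bc30-30722 made up 0.603% and 6.95% at or below the median pseudotime, but 0.569% and 0.591% above it. At or below the median pseudotime, bc14-76-bc30-49517 made up 1.09% (0.498 to 2.05) of ERI1 and 4.55% (2.67 to 7.18) of ERI2. Above that median its shares were 9.11% (6.79 to 11.9) and 44.3% (39.9 to 48.7). At or below the median mitochondrial share, bc14-76-bc30-49517 made up 2.31% (1.39 to 3.58) and 17.3% (13.4 to 21.8). Above that median its shares were 7.14% (5.10 to 9.67) and 33.6% (29.7 to 37.8).

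Most cells lay in 1 cluster in both conditions, while several small clusters differed. Cluster 7 held 1691 ERI1 cells, 90.7% (89.3 to 92.0), and 1103 ERI2 cells, 87.7% (85.8 to 89.5), a difference of -2.92 percentage points. Outside it, cluster 2 held 9 ERI1 cells, 0.483% (0.221 to 0.914), and 37 ERI2 cells, 2.94% (2.08 to 4.03). Cluster 9 held 9 cells, 0.483%, and 22 cells, 1.75% (1.10 to 2.64). Cluster 13, whose cells had median mitochondrial shares of 77.7% and 77.9% and medians of 842.5 and 1229.5 UMIs, held 1.93% (1.36 to 2.66) and 3.50% (2.55 to 4.67). In the other direction, cluster 1 held 23 ERI1 cells, 1.23% (0.783 to 1.84), and 2 ERI2 cells, 0.159% (0.0193 to 0.574), and cluster 11 held 2.31% (1.67 to 3.09) and 1.35% (0.790 to 2.16).

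**Figure D2:**
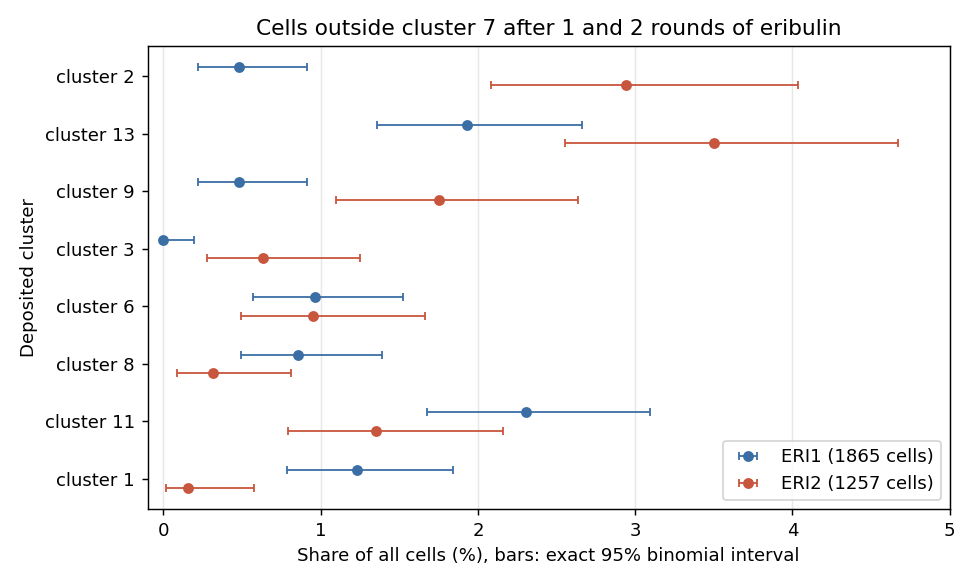
Share of all ERI1 cells (blue) and ERI2 cells (red) in the deposited clusters outside cluster 7 with over 0.4% of either condition (horizontal axis, %), with exact 95% binomial intervals. The largest share is 3.50%, in cluster 13 of ERI2. The intervals are apart for clusters 1, 2, 3 and 9.

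Several of the small groups outside cluster 7 came from few lineages. In cluster 2 a single barcode was called in 6 of 9 ERI1 cells and in 16 of 37 ERI2 cells, so the lineage of most ERI2 cells there is not known. Of the 16 barcoded ERI2 cells in cluster 2, 15 carried bc14-76-bc30-49517, as did all 6 barcoded ERI1 cells there. This lineage nevertheless lay mainly in cluster 7 in both rounds, with 89.5% of its ERI1 cells and 89.3% of its ERI2 cells, whereas 93.0% (91.0 to 94.6) of its ERI3 cells lay in cluster 2. In cluster 1, 10 of the 19 barcoded ERI1 cells carried bc14-36-bc30-56638, a lineage of which 17 of 18 untreated cells lay in that cluster and of which 1 cell was found in ERI2. Cluster 3 held no ERI1 cell and 8 ERI2 cells, 4 of which carried bc14-55-bc30-23349 (named after its values were seen). This barcode had 5 cells in ERI1 and 7 in ERI2. In ERI3 it made up 13.8% of the barcoded cells, with 64.3% (58.6 to 69.6) of them in cluster 3. The median hashtag count was 524 in the ERI2 cells of cluster 2, 547 in those of cluster 3 and 573 in those of cluster 7. Cluster 8 held 9 of 104 ERI1 cells of bc14-6-bc30-93034 and 1 of 13 ERI2 cells, whereas 89.7% of its ERI3 cells lay there. Whether some of these cells were assigned to the wrong hashtag was not tested.

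Cell cycle measures were close in both conditions. The median S score was -0.106 in both conditions, and the ERI2 cell was higher in 50.7% of random pairs. The median G2M score was -0.0436 in ERI1 and -0.0362 in ERI2, with the ERI2 cell higher in 50.9% of pairs. Taking the phase from the higher score, and G1 where both scores were at or below 0, S cells made up 24.8% (22.9 to 26.9) of ERI1 and 23.9% (21.6 to 26.4) of ERI2. G2M cells made up 42.0% (39.7 to 44.3) and 41.8% (39.1 to 44.6). The counting intervals overlap widely, but free RNA also enters such scores, and no rate of division is read from them.

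By the share of random pairs in which the ERI2 cell was higher, the mitochondrial share differed most among the state measures. This share counts RNA made in the mitochondria themselves; it is high in cells that have lost cytoplasmic RNA and also varies with metabolism. Its median was 3.05% in ERI1 (middle 50% of cells from 2.42% to 3.80%) and 3.81% in ERI2 (2.91% to 4.82%), and the ERI2 cell was higher in 65.7% of random pairs. Cells above 5% made up 8.10% (6.90 to 9.43) of ERI1 and 22.4% (20.2 to 24.8) of ERI2. The difference was as large within cluster 7, with medians of 3.05% and 3.85% and with 6.56% (5.43 to 7.85) and 20.8% (18.4 to 23.3) of cells above 5%. In contrast, cells above 10% were rare in cluster 7 in both conditions, 0.414% and 0.544%. The middle 50% of cells of both conditions overlapped broadly, and both the lower and the upper quartile were higher in ERI2.

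Pseudotime differed less in its centre than in its tails. The median was 13.6 in ERI1 (middle 50% from 13.3 to 13.97) and 13.7 in ERI2 (13.4 to 14.7), and the ERI2 cell was higher in 61.6% of pairs, with ties in 2.92% of pairs counted equally to either side. The 10th percentile was 12.2 in ERI1 and 13.01 in ERI2, and the 90th 14.7 and 18.3. Cells above 18 made up 5.42% (4.43 to 6.54) of ERI1 and 10.6% (8.93 to 12.4) of ERI2. Many cells share the same pseudotime value, so the medians move in steps. The value 16.6166 was given to 0.751% of ERI1 cells and 5.65% of ERI2 cells, and 56 of the 62 barcoded ERI2 cells at it carried bc14-76-bc30-49517. That lineage had 12.3% of its ERI1 cells and 23.1% of its ERI2 cells at this value.

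**Figure D3:**
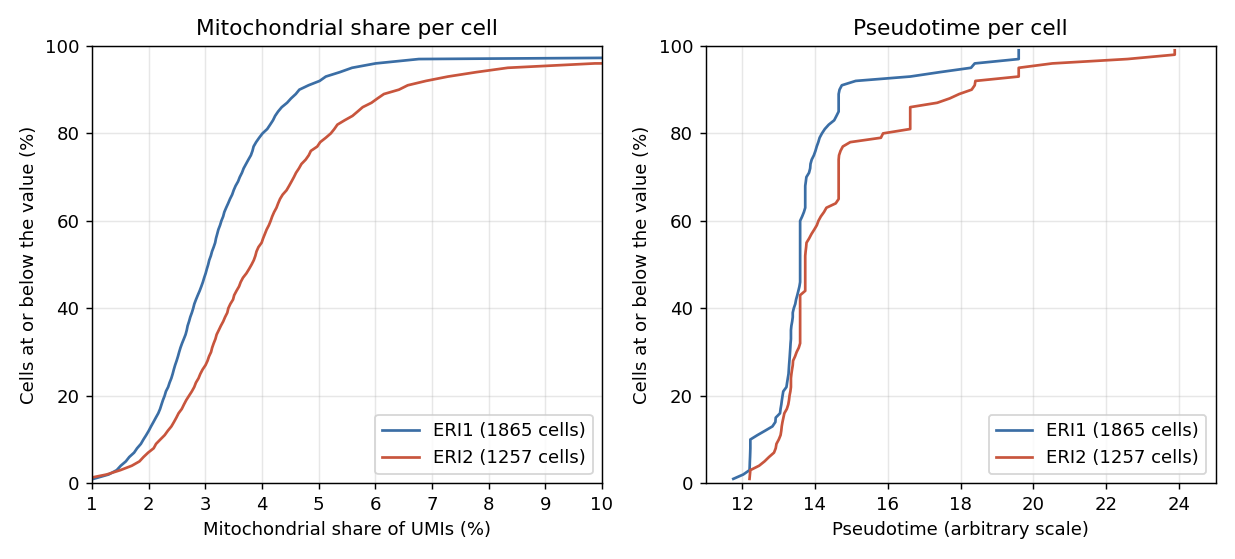
Percentage of ERI1 cells (blue) and ERI2 cells (red) at or below each mitochondrial share (left, %) and each pseudotime (right, arbitrary scale), from the 1st to the 99th percentile. The mitochondrial curve of ERI2 lies to the right over most of the range, and so does its pseudotime curve, with 10th percentiles of 12.2 and 13.01 and 90th percentiles of 14.7 and 18.3. The pseudotime curves rise in steps where many cells share 1 value.

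Comparing each lineage with itself shows which differences persist when the lineage is held fixed. There were 9 barcodes with at least 10 cells in both conditions, together 440 ERI1 cells, 32.4% of those barcoded, and 660 ERI2 cells, 74.8%. The median mitochondrial share was higher in ERI2 in 9 of 9 lineages, by 0.157 to 1.55 percentage points with a median of 0.431. The 95% interval of the difference, which covers the spread between cells only, lay above 0 in 2 of the 9, bc14-6-bc30-93034 and bc14-74-bc30-34057. Over cells with exactly 1 detected barcode, the median was higher in 6 of the 7 lineages left to compare. In bc14-76-bc30-49517 it was 3.69% in ERI1 and 4.14% in ERI2, in bc14-22-bc30-18173 3.43% and 3.58%, and in bc14-39-bc30-41529, whose shares were close, 3.27% and 3.60%. The largest difference was in bc14-6-bc30-93034, with 104 ERI1 and 13 ERI2 cells, at 2.99% and 4.54%. Its 13 ERI2 cells give a coarse median. In bc14-74-bc30-34057 the values were 2.70% and 3.52%. The cells of a lineage share their culture and library, so the 9 lineages are not 9 replicates of the second round.

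Pseudotime, cluster and cell cycle had no common direction within lineages. The median pseudotime was higher in ERI2 in 5 of the 9 lineages and lower in 4. It was 15.0 in ERI1 and 14.9 in ERI2 for bc14-76-bc30-49517, the highest of the 9 in both rounds, and 13.6 and 13.1 for bc14-55-bc30-37135. The largest difference was in bc14-89-bc30-6288, with 13.3 and 14.5 over 19 and 36 cells. The share of a lineage in cluster 7 was higher in 4 lineages, lower in 4 and equal in 1, and stayed at 87.9% or above except in bc14-95-bc30-33662, where it was 94.7% of 19 cells and 70.6% of 17. The median S score was higher in ERI2 in 3 of 9 lineages and the median G2M score in 6 of 9.

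**Figure D4:**
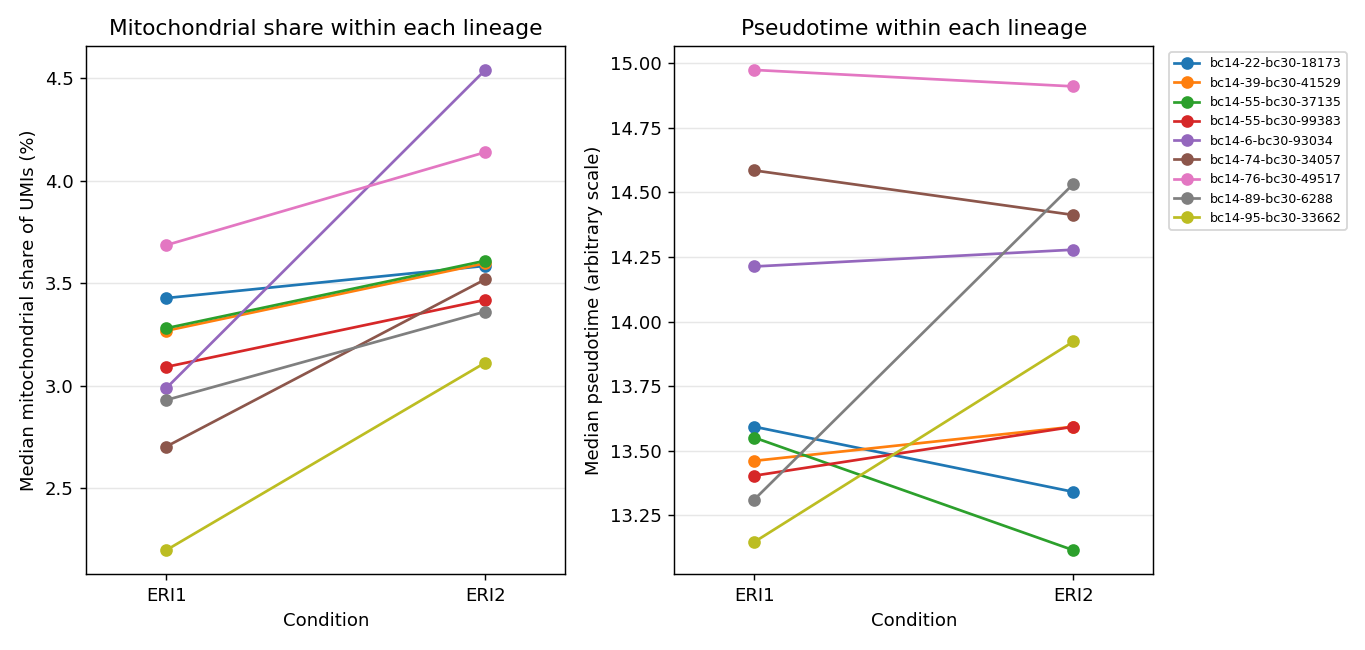
Median mitochondrial share of UMIs (left, %) and median pseudotime (right, arbitrary scale) in ERI1 and ERI2 for the 9 barcodes with at least 10 cells in both conditions, each line 1 barcode. All 9 lines go up for the mitochondrial share; for pseudotime 5 go up and 4 go down.

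Lineages differed from each other in pseudotime and hardly in cell cycle. Over the same 9 barcodes within cluster 7, differences between barcodes made up 34.2% of the variance of pseudotime in ERI1 and 42.4% in ERI2 (omega squared). Over all clusters they made up 26.7% and 27.1%. For the mitochondrial share they made up 5.68% and 6.53% within cluster 7, but 4.68% and 1.11% over all clusters. For the S and G2M scores they made up no more than 1.20% in either condition, in cluster 7 or over all clusters. In ERI1, bc14-76-bc30-49517, bc14-74-bc30-34057 and bc14-6-bc30-93034 had the 3 highest median pseudotimes, with 15.0, 14.6 and 14.2. In ERI2, bc14-89-bc30-6288 with 14.5 came between the first of them and the other 2.

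The difference of each mean over barcoded cells was then divided exactly into a lineage part, from the altered barcode shares, and a state part, from altered values within barcodes. For this, 14 barcodes with at least 5 cells in both conditions stood alone, holding 39.5% of the barcoded ERI1 cells and 82.2% of the barcoded ERI2 cells, and the rest formed 1 class. The mean mitochondrial share was 3.35% in ERI1 and 4.32% in ERI2. Of the difference of 0.974 percentage points, 0.396 came with the barcode shares, 0.337 with values within the 14 barcodes and 0.241 with values within the remaining class. The remaining class holds different lineages in ERI1 and ERI2, so its part is not free of lineage changes. The means include 7 ERI1 and 9 ERI2 barcoded cells of cluster 13, with its high mitochondrial shares. Without cluster 13 the lineage part was 0.293 and the state part 0.437 percentage points. In cluster 7 alone they were 0.2345 and 0.5394.

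For mean pseudotime, 13.8 in ERI1 and 14.6 in ERI2, the difference of 0.830 was made up of 0.224 from the barcode shares, 0.0857 from within the 14 barcodes and 0.520 from the remaining class. Which part was larger depended on the setting. At ERI2 barcode shares the lineage part was 0.543 and the state part 0.287, and in cluster 7 alone they were 0.371 and 0.139. In the class of the other barcodes lies bc14-33-bc30-33994 (named after its values were seen), with 0 of 1356 ERI1 cells, which allows up to 0.221%, and 14 ERI2 cells, all in cluster 9 at a median pseudotime of 23.9. Over barcoded cells, the share in cluster 7 was 91.96% in ERI1 and 90.59% in ERI2. This difference of -1.37 points had an interval from -3.78 to 1.04, which includes 0, so it lay within counting error. Its lineage part was 3.099 points and its state part -4.47, in opposite directions. Of the state part, -0.0362 lay within the 14 barcodes and -4.43 in the remaining class. The direction of these lineage parts depended on the weights: for pseudotime it was -0.0955 with the state part at ERI1 barcode shares, and for cluster 7 it was 6.47 points at ERI1 and -0.273 at ERI2 barcode shares. With weights averaged over both conditions, parts of the S and G2M score differences ran from -0.0252 to 0.0240. On these scales ERI1 cells had SDs of 0.171 and 0.282. With the state part at ERI1 barcode shares, the lineage and state parts of the G2M score were 0.0424 and -0.0255.

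**Figure D5:**
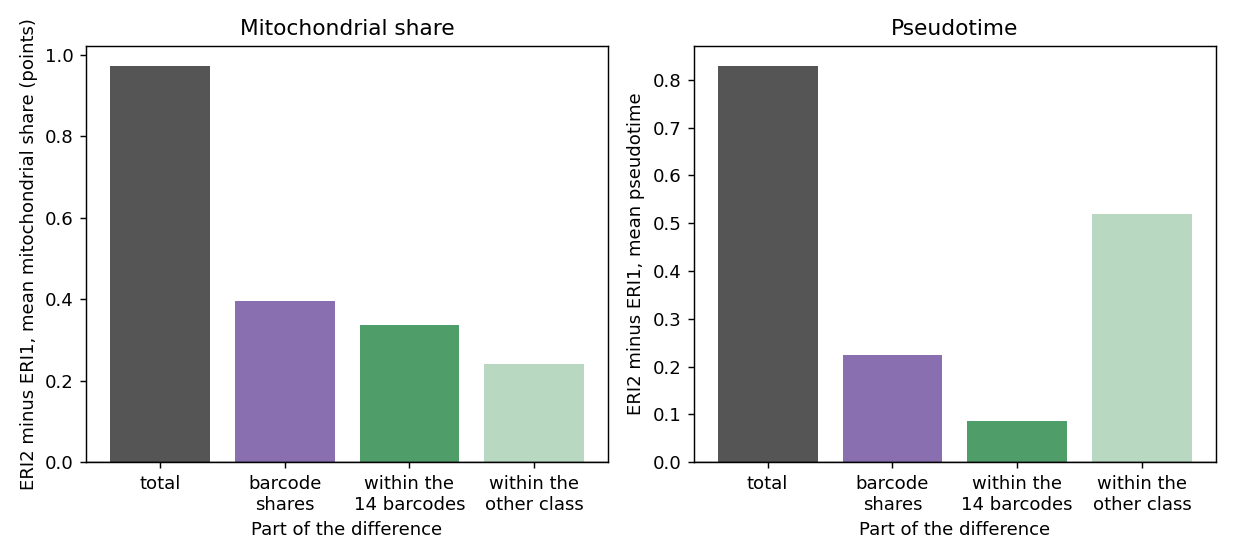
ERI2 minus ERI1 difference of the mean mitochondrial share (left, percentage points) and mean pseudotime (right) over barcoded cells, as the total and its 3 parts: altered barcode shares, values within the 14 barcodes that stand alone, and values within the class of all other barcodes. The 3 parts add up to the total; within the 14 barcodes the part is 0.337 for the mitochondrial share and 0.0857 for pseudotime.

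Neighbourhoods in the deposited UMAP, a map that places cells of like expression near each other, were compared next. Among ERI1 and ERI2 cells, 40.3% of which were ERI2, the 30 nearest neighbours were ERI2 in 31.3% for ERI1 cells and in 53.9% for ERI2 cells. Neighbours also shared lineages: the same barcode was found in 7.55% of the barcoded neighbours of ERI1 cells and 18.2% of those of ERI2 cells, against 2.85% and 6.34% among all barcoded cells. Within cluster 7, with 10 neighbours, the ERI2 share around ERI2 cells exceeded that around ERI1 cells by 22.7 percentage points. When neighbours were taken only among cells of the same barcode, this gap was between 1.34 and 22.6 points, with a median of 12.5, over the 6 barcodes with at least 20 cells in both conditions. The 10 neighbours are a larger part of the cells of 1 barcode than of all cluster 7 cells. The gaps with and without the limit to 1 barcode are thus not on a common scale. Within barcodes, the gap was 1.34 for bc14-76-bc30-49517 (216 ERI2 and 51 ERI1 cells), with 80.6% ERI2 neighbours around ERI2 cells and 79.2% around ERI1 cells, both close to the 80.9% of ERI2 among its cells. The gap was largest for bc14-74-bc30-34057, with 79.8% and 57.2%.

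The states of lineages in ERI1 were set beside the direction of their share differences. A floor of 10 ERI1 cells leaves out 8 of the 13 barcodes with a higher share in ERI2 and 1 of the 23 with a lower share, so those compared are not all. Over the barcodes with at least 10 ERI1 cells, the median pseudotime in ERI1 was between 13.3 and 15.0 in the 5 barcodes with a higher share in ERI2 and between 13.004 and 14.2 in the 22 with a lower share; 2 of the 5 lay above the highest of the 22. The median mitochondrial share in ERI1 was between 2.70% and 3.69% in the 5 and between 2.59% and 3.68% in the 22, with medians over barcodes of 3.28% and 2.96%. The share in cluster 7 was between 87.9% and 100% against 77.4% and 100%. The ranges overlapped in each of these 3 measures and in the S score, the G2M score and the UMIs per cell, which with 5 and 22 values says little about a relation. The comparison was added after the shares were seen.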

How the data were processed

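Reads of run 2 were counted on mm10 with Cell Ranger 4.0.0, Seurat 3.1.4 gave the clusters and the UMAP, and Monocle3 0.2.1 the pseudotime of the merged samples, according to the design text and, for Cell Ranger and Seurat, per the submitters' processing notes. The clusters and the pseudotime cover the cells of all runs. In the deposited cell table the counts are UMIs, genes, lineage barcode counts and hashtag counts of each cell, not normalized. The deposited percent values give the part of each cell's UMIs that came from mitochondrial genes. The deposited score columns (S, G2M and pseudotime) have arbitrary scales. How the authors called barcodes is not given in the sources used here. Their latest call was used, and cells without a single call (ERI1 17.9% without a call, 8.47% called Doublet and 0.912% Multiplet; ERI2 17.0%, 11.5% and 1.27%) entered only comparisons over all cells. No doublet caller was run.

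Samples were mapped from the labels, and cells to ERI1 or ERI2 by the deposited condition name. All cells were kept, including 26 ERI1 and 33 ERI2 cells with over 50% mitochondrial UMIs, which the stated filter would remove. Shares carry exact Clopper-Pearson 95% intervals. A share of 0 is given the limit of 3 cells, also used for folds. Barcodes were named by a rule: at least 2% of the barcoded cells of either condition, or among the 5 largest folds in each direction with at least 20 cells. Clusters were named at 1% of either condition, and the smaller clusters 3 and 8 were added after their values were seen. The members and lists were chosen with earlier results of these data known. The number of barcodes at equal cell number and the division into lineage and state parts are formulas, tested on simulated data. Python 3.11.15, pandas 2.3.3, NumPy 2.4.6, SciPy 1.17.1 and matplotlib 3.10.9 were used. Alternatives were another barcode call, cells with 1 detected barcode, a UMI window from 8785 to 32465, cluster 7 alone, other thresholds and weights.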

Additional observations from a re-analysis of the deposited data

Results flagged for a closer look

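The share of cluster 7 over all cells differed in opposite directions between the drugs from the first to the second round. The difference was -2.92 percentage points with eribulin and 33.9 percentage points with paclitaxel, each larger than its counting error. Cluster 7 already held 90.7% of ERI1 cells. Without cluster 13 the eribulin difference was -1.52 points. Over barcoded cells it was -1.37 points, with an interval from -3.78 to 1.04 that includes 0. These settings were not run for paclitaxel. The difference between the drugs was not tested, since each condition has 1 library, and drug, dose, library and recovery after the last round cannot be told apart. Of 41 quantities compared in this way (medians, phases, clusters and the 19 named barcodes), 8 differed beyond counting error with both drugs, and cluster 7 was the 1 quantity in opposite directions.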

How the results depend on the processing

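No paired analysis was possible because each condition has 1 library and the labels give no replicate numbers; for the same reason no replicate could be left out. The median mitochondrial share was higher in ERI2 under each alternative run for it. Of 76 differences of the 19 named barcodes over 4 alternatives, 75 kept their direction. The exception was bc14-39-bc30-41529, at -0.152 percentage points with exactly 1 detected barcode. The 19 were named from the same cells, and cluster 7, the UMI window and the cells with 1 detected barcode are parts of them. The direction was thus largely fixed in advance. In size, 4 of the 76 lay outside the main interval. Those of bc14-55-bc30-37135 fell from 7.15 to 0.591 and 1.23 points, while bc14-21-bc30-28628 and bc14-76-bc30-49517 differed more, at -9.015 and 28.26. With the first revision of the barcode call the pairs with the same barcode were 3.45% in ERI1 and 14.03% in ERI2, and with exactly 1 detected barcode 3.66% and 15.2%. The number of barcodes with a lower share was 15 with exactly 1 detected barcode, 11 with at least 20 cells over both conditions and 13 at 3-fold, because fewer barcodes or a higher fold can count. The division into parts depended on its weights. With the state part at ERI1 barcode shares, the lineage part of mean pseudotime reversed to -0.0955 and the state part was 0.925, and for the cluster 7 share the parts were 6.47 and -7.84 points. At ERI2 barcode shares the pseudotime parts were 0.543 and 0.287, and those of cluster 7 were -0.273 (reversed) and -1.10. In cluster 7 alone the state part of pseudotime was 0.139; the cluster 7 share itself is then fixed. Of the 6 lineages with at least 20 cells in both conditions, 2 had a higher median pseudotime in ERI2. The median difference over these 6 was -0.118, against 0.06495 over the 9 lineages with at least 10 cells. The cause of these shifts was not tested. With 882 barcoded ERI2 cells, a count of 0 allows shares up to about 0.340%. Leaving out cluster 13 was added after the data were seen.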

Other observations

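Barcode bc14-33-bc30-33994, chosen after its values were seen, had an unusual pattern. It was called in 0 of 1356 barcoded ERI1 cells, in 14 ERI2 cells, 1.59%, and in 0 of 2215 barcoded ERI3 cells, which allows up to 0.135%. All 14 ERI2 cells lay in cluster 9. Under paclitaxel it made up 1.84% of PAC1, 3.69% of PAC2 and 2.36% of PAC3, with 97.0%, 90.5% and 96.3% of its cells in cluster 9. Of the 14 ERI2 cells, 0 shared a droplet cell barcode with the paclitaxel library. Their median was 13721 UMIs and 613 hashtag counts, against a median of 575 in all ERI2 cells. Barcode bc14-29-bc30-33048, with 5 ERI1 cells and 3 ERI2 cells, likewise had 3 cells of each in cluster 9. How such cells came to be in the eribulin library was not tested.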
